A study of Homo sapiens with 18 samples.

Results

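The genes described here encode the part of the ESCRT machinery that acts last, the ESCRT-III subunits CHMP1A, CHMP1B, CHMP2A, CHMP2B, CHMP4B, CHMP4C, CHMP5 and CHMP6 and the ATPases VPS4A and VPS4B. They were taken by name, as the entries whose RefSeq identifier belongs to one of these symbols, and they are 10 of the 20802 genes listed for each library. Every one has a single entry, and all 10 had more than 100 counts over the libraries, the minimum for testing. The RNA came from RKO, an established human colorectal carcinoma cell line, harvested 72 h after transfection with 30 nM of 1 of 6 siRNAs. The siRNAs siCtrl#1 and siCtrl#2 are nontargeting, siTsg101#1 and siTsg101#2 target TSG101, and siVps28#1 and siVps28#2 target VPS28. Transfection was common to all groups, siCtrl#1 was the reference, and untransfected cells were not analysed here. Each group had 3 biological replicates, and each replicate number, which the labels also give as a batch, covers 1 library of every siRNA. Each group thus shows a single siRNA sequence in a single line, with knockdown rather than deletion of the target.

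ESCRT complexes bud membranes away from the cytosol and sever the necks of the buds. ESCRT-I, to which Tsg101 and Vps28 belong, binds ubiquitinated cargo on endosomes and passes it on. ESCRT-III subunits are soluble proteins that polymerise into filaments on the membrane, first CHMP6 and the CHMP4 proteins, then the CHMP2 and CHMP1 proteins, and the VPS4 ATPases pull the filaments apart so that subunits can be used again. The same filaments act in cytokinetic abscission, in nuclear envelope sealing and in repair of the plasma membrane and of lysosomes. None of these genes was targeted by an siRNA of the study, and the comparisons address how their transcripts responded to the loss of ESCRT-I.

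A library held 2561790 to 7466916 reads assigned to genes, and the lowest count of any of the 10 genes in a library was 20, for CHMP6. Values are given as normalized CPM, the reads of a gene scaled to a common library size (CPM) and by TMM factors. The panel amplifies 1 short stretch per transcript, so that levels can be set side by side for the same gene but not between genes. Gene positions below are those of GRCh37. The labels held for the targets. TSG101 was at 2.49 to 4.97 normalized CPM in the 6 siTsg101 libraries and at 74.4 to 167 in the 12 others. VPS28 was at 3.47 to 7.85 in the 6 siVps28 libraries and at 65.0 to 112.0 in the 12 others. Of 5 epithelial markers CDH1 had no read and KRT19 had 1 read in all, whereas KRT18 reached 517 counts in a library. Leukocyte, fibroblast and endothelial markers had at most 2, 11 and 2 counts in a library. In RNA from whole cultures, a change within each cell and a change in the mix of cell states cannot be told apart.

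The promoters of CHMP1A, CHMP1B and CHMP4B are shown because these were the genes whose transcripts rose by 1.5-fold or more with at least 1 on-target siRNA. They are RefSeq sequences of GRCh38.p14, 250 bases before and 50 bases after the start of the gene, written 5′ to 3′ on the strand of the gene. The CHMP1A sequence lies at chr16:89657659-89657958 on the minus strand, the CHMP1B sequence at chr18:11851163-11851462 on the plus strand and the CHMP4B sequence at chr20:33811098-33811397 on the plus strand. Capitals mark the only matches to 5 motifs that were searched on both strands.
CHMP1A: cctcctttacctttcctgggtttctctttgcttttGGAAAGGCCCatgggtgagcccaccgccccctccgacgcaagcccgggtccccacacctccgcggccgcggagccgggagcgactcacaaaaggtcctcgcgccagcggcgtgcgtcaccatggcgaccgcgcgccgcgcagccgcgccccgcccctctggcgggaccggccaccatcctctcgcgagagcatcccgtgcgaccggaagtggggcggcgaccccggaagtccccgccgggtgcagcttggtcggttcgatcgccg
CHMP1B: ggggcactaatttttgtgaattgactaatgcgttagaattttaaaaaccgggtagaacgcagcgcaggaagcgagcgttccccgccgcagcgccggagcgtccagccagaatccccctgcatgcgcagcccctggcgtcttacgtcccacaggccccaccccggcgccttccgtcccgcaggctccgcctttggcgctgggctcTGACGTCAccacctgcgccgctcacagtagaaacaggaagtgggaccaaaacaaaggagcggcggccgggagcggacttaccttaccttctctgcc
CHMP4B: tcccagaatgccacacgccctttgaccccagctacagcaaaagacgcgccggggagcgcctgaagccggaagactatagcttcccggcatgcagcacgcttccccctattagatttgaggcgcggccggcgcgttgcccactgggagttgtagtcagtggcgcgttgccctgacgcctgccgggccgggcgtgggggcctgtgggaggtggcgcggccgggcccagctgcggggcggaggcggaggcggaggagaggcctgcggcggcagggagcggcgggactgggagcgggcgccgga
The capitals in CHMP1A match the NF-kB site motif on the other strand, and begin 215 bases before the start. The capitals in CHMP1B are a cAMP response element, TGACGTCA, which begins 46 bases before the start. Of the 10 genes, 8 had an entry among the 35116 promoters, CHMP4C and CHMP6 being the others. This form of the NF-kB site was in 1 of the 8 and in 1.91% of all promoters, and the cAMP response element in 1 of the 8 and in 1.85%. No match was in these windows for the E-box CACGTG (7.26% of all promoters), the CLEAR core TCACGTGA (0.98%), which contains that E-box, or the sterol regulatory element TCACNCCAC (1.13%). The 8 promoters held 19 to 40 CpG dinucleotides, all above the median of 14 over all promoters, whose upper quartile was 28.

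Upon ESCRT-I depletion 4 of the 10 transcripts changed with at least 1 on-target siRNA. CHMP1A rose with both siTsg101 siRNAs and with neither siVps28 siRNA. CHMP1B rose with siTsg101#2 and siVps28#2, CHMP4B with siTsg101#1 and siVps28#2, and CHMP2B fell with siTsg101#1, each relative to siCtrl#1. The other 6 genes passed no test against siCtrl#1 in the main edgeR fit, which is described under the processing below. Here rose and fell mean an adjusted p under 0.05 in edgeR's quasi-likelihood test with Benjamini-Hochberg adjustment over 10246 genes, and a gene is called where the change was also 1.5-fold or more. At that adjusted p 26.1% and 20.7% of all genes changed with the siTsg101 siRNAs, #1 and #2, and 9.45% and 14.9% with the siVps28 siRNAs. Each of these shares is for a single siRNA. The share of all genes that changed with at least 1 of the 4 was not computed and cannot be below 26.1%. The 4 of 10 therefore cannot be read as more than the share of all genes.

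By that stricter rule siTsg101#1 gave 2 called genes, CHMP1A and CHMP4B, where 21.8% of all tested genes were called in either direction and 11.6% as higher. siTsg101#2 gave 1, CHMP1A, with 17.0% of all genes called and 10.1% as higher. siVps28#2 gave 2, CHMP1B and CHMP4B, with 13.3% called and 7.09% as higher. siVps28#1 gave none in edgeR and none in DESeq2, with 8.63% of all genes called, and CHMP1B and CHMP6 were the 2 genes with an unadjusted p under 0.05. With numbers this small, 0 to 2 of 10 genes are near the share of all genes called with each siRNA. The median log2 fold change of the 10 genes was 0.22 and 0.07 for siTsg101#1 and siTsg101#2, and 0.10 and 0.25 for siVps28#1 and siVps28#2. The median over all tested genes lay between -0.01 and 0.01 in these comparisons. The 4 comparisons share the siCtrl#1 libraries.

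**Figure D1:**
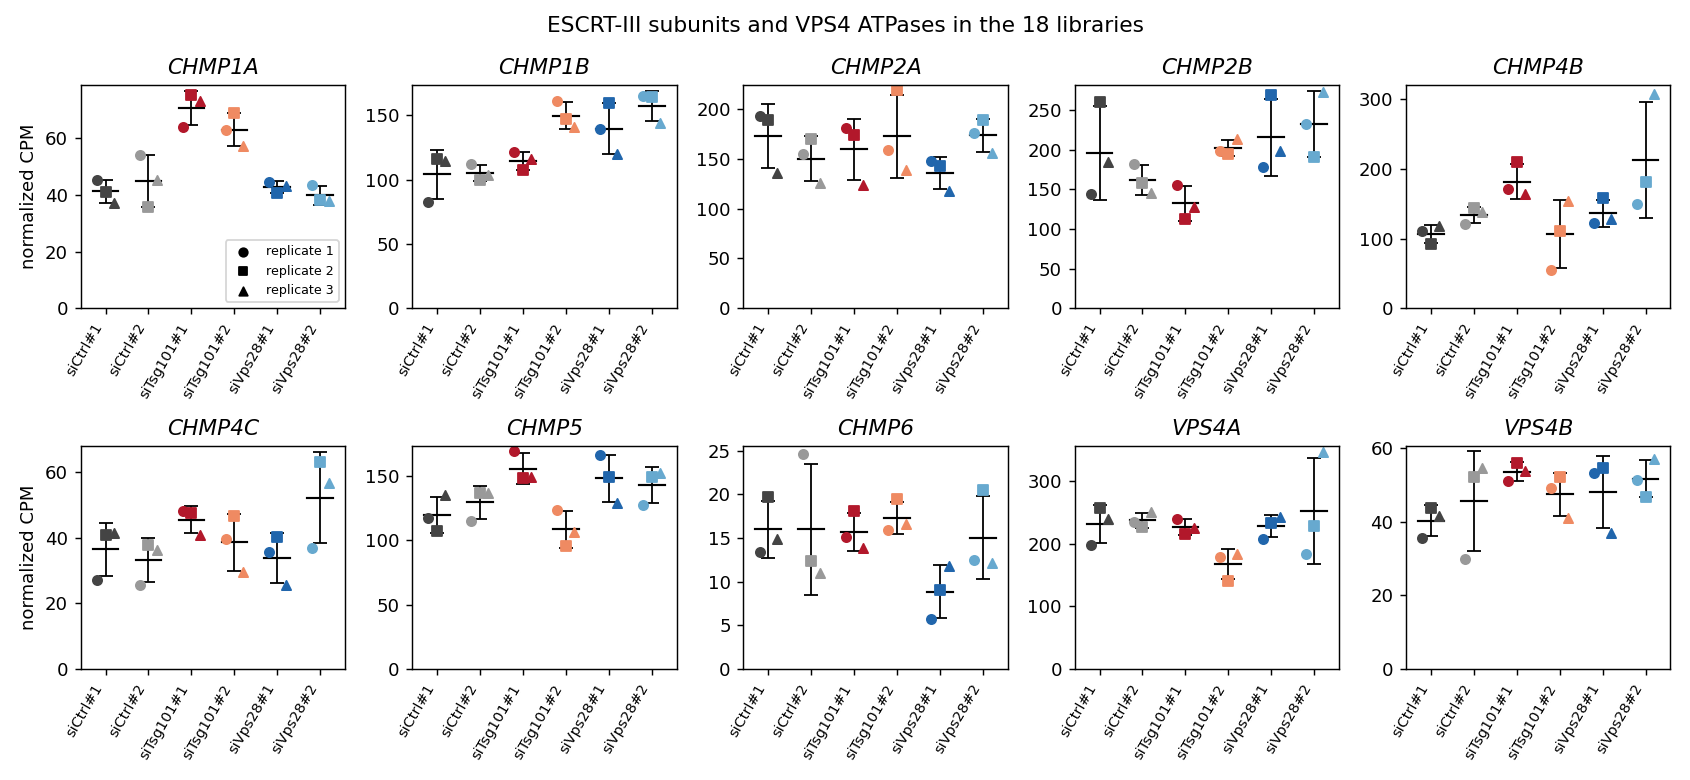
Normalized CPM (linear axis from 0) of each of the 10 genes in the 18 libraries, by siRNA group; symbols mark the replicate number, horizontal bars the mean and vertical bars the SD of 3 replicates. The 6 siTsg101 libraries stand above all others for CHMP1A, and for CHMP1B the 9 libraries of siTsg101#2, siVps28#1 and siVps28#2 stand above the 6 nontargeting ones.

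CHMP6 (ENSG00000176108, chromosome 17, 78965398 to 78983317), which links ESCRT-II to the growing filament, was the gene with the fewest reads, 20 to 125 per library. Its level was 16.0 ± 3.3 normalized CPM with siCtrl#1 (SD, n = 3) and 16.0 with siCtrl#2, where the libraries ranged from 11.0 to 24.6. The 3 siVps28#1 libraries gave 5.78, 9.08 and 11.8 normalized CPM. All 3 lay below the siCtrl#1 libraries, at 13.4, 19.7 and 14.9, and lower values without overlap were found for 13.9% of all genes. The log2 fold change was -0.82 (SE 0.31) with an edgeR adjusted p of 0.0991, which missed the threshold. CHMP6 was called as changed with siVps28#1 in a fit with no low-count filter and in a fit without siCtrl#2 replicate 1. With siVps28#2 the level was 15.1 ± 4.7 (SD, n = 3), close to that of siCtrl#1, and the 95% interval of its log2 fold change ran from -0.66 to 0.51. An antisense transcript overlaps 455 bases of CHMP6, and the strand setting of the counting is not given in the sources used here.

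CHMP4B (ENSG00000101421, chromosome 20, 32399154 to 32442172), the main subunit of the filament, was high with one siRNA against each target. The siCtrl#1 libraries gave 110.4, 92.3 and 117 normalized CPM in the order of the replicates, and the siTsg101#1 libraries 171, 210.1 and 163. With siVps28#2 the values were 150.2, 181 and 308. Both groups lay wholly above siCtrl#1, as for 20.7% and 16.3% of all genes, and 1 siVps28#2 library, of replicate 3, stood far above the rest. The log2 fold change was 0.76 (SE 0.27, edgeR adjusted p = 0.0365) with siTsg101#1 and 0.99 (SE 0.26, edgeR adjusted p = 0.0115) with siVps28#2. The other siRNA against each target did not move CHMP4B past the threshold. siTsg101#2 gave 55.3, 111 and 153.8 normalized CPM, the widest spread of CHMP4B in the 6 groups relative to the mean, and a log2 fold change of 0.00 (95% interval -0.55 to 0.54). siVps28#1 gave 123, 157.9 and 127.9, all above siCtrl#1 as for 14.7% of all genes, and a log2 fold change of 0.35 (edgeR adjusted p = 0.475).

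The reference mattered for CHMP4B. The siCtrl#2 libraries, at 121, 143 and 138 normalized CPM, were also all above those of siCtrl#1, which held for 8.57% of all genes. Against siCtrl#2 the log2 fold change was 0.43 with siTsg101#1 (edgeR adjusted p = 0.273) and 0.67 with siVps28#2 (edgeR adjusted p = 0.117), and neither passed. Leaving out any 1 of the 6 libraries of siTsg101#1 and siCtrl#1 took the siTsg101#1 adjusted p above 0.05, up to 0.123 without siCtrl#1 replicate 2. The siTsg101#1 log2 fold change ranged from 0.65 to 0.84 in these fits. The siVps28#2 call was lost without siVps28#2 replicate 3 (log2 fold change 0.63, edgeR adjusted p = 0.115) and without siCtrl#1 replicate 2 (0.90, edgeR adjusted p = 0.0596). The processed pseudogene CHMP4BP1 and other loci share 14.4% of the CHMP4B transcript in stretches of 50 bases.

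CHMP4C (ENSG00000164695), the CHMP4 protein known for its part in the abscission checkpoint, ranged from 25.6 to 63.2 normalized CPM. It passed no test against siCtrl#1 in the main edgeR fit. Its highest group was siVps28#2, at 36.8, 63.2 and 56.8 against 27.3, 40.9 and 41.4 with siCtrl#1. The 2 groups overlapped, and the log2 fold change was 0.52 (SE 0.23, edgeR adjusted p = 0.134). Against the average of both nontargeting siRNAs it was 0.58 and passed (edgeR adjusted p = 0.0401). An antisense gene, ZFAND1, overlaps 236 bases of CHMP4C.

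CHMP2A and CHMP2B, which with CHMP3 form the layer of the filament that recruits VPS4, differed in pattern. CHMP2A (ENSG00000130724, chromosome 19, 59062819 to 59066472) had group means between 136 with siVps28#1 and 174 with siVps28#2, and within every group replicate 3 gave the lowest value. The log2 fold change of CHMP2A with the mean of the 4 on-target siRNAs was -0.11 (95% interval -0.42 to 0.20, SE 0.15). This fit leaves out the replicate number. With the replicate number as a block the value was -0.11 (SE 0.11, edgeR adjusted p = 0.480). CHMP2B (ENSG00000083937, chromosome 3, 87276421 to 87304706) fell with siTsg101#1, at 155.5, 113 and 128 normalized CPM against 144, 259.7 and 184 with siCtrl#1. The groups overlapped, because siCtrl#1 replicate 1 lay below siTsg101#1 replicate 1. The log2 fold change was -0.57 (SE 0.20, edgeR adjusted p = 0.0395), just short of 1.5-fold, and 12.5% of all genes were lower at that adjusted p.

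The fall of CHMP2B was lost without siCtrl#1 replicate 2 or 3 and without siTsg101#1 replicate 2 or 3. Without siCtrl#1 replicate 2 the log2 fold change was -0.31 (edgeR adjusted p = 0.287) and without replicate 3 -0.61 (edgeR adjusted p = 0.0588). Without siTsg101#1 replicate 2 it was -0.46 (edgeR adjusted p = 0.148), without replicate 3 -0.54 (edgeR adjusted p = 0.113), and against siCtrl#2 it was -0.29 (edgeR adjusted p = 0.338). With siTsg101#2 CHMP2B gave 198.6, 194 and 214 normalized CPM, all above the 3 siTsg101#1 libraries. The log2 difference between the 2 siRNAs was -0.62 (SE 0.20, edgeR adjusted p = 0.0591). No gene of this pair shares a stretch of 50 bases with another gene in the annotation, and the longest run of identical bases between them was 11.

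CHMP1A, a late subunit whose tail binds proteins with MIT domains, was the gene with the most regular response. The siTsg101#1 libraries gave 64.1, 75.4 and 73.1 normalized CPM and the siTsg101#2 libraries 63.0, 68.9 and 57.5. The siCtrl#1 libraries gave 45.4, 41.2 and 37.2, and the siCtrl#2 libraries 54.1, 35.8 and 45.2. All 6 libraries of Tsg101-depleted cells thus exceeded every other library, as they did for 2.26% of all genes. With siVps28#1 the values were 44.8, 40.6 and 43.2, and with siVps28#2 43.6, 38.2 and 37.7, within the range of the nontargeting siRNAs.

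Against siCtrl#1, CHMP1A had a log2 fold change of 0.79 (SE 0.16, edgeR adjusted p = 0.000953) with siTsg101#1 and 0.61 (SE 0.16, edgeR adjusted p = 0.00834) with siTsg101#2. With siVps28#1 it was 0.06 (95% interval -0.28 to 0.39) and with siVps28#2 -0.05 (95% interval -0.38 to 0.29), intervals that leave out the values of both siTsg101 siRNAs. The rise held against siCtrl#2, with a log2 fold change of 0.66 (edgeR adjusted p = 0.00527) for siTsg101#1 and 0.49 (edgeR adjusted p = 0.0373) for siTsg101#2, the second under 1.5-fold. No other gene overlaps the exons of CHMP1A (ENSG00000131165, chromosome 16, 89707224 to 89724146), and none shares a stretch of 50 bases with it. It had 134 to 524 counts per library.

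CHMP1B, the paralog of CHMP1A that recruits spastin, followed another order of siRNAs. The siCtrl#1 libraries gave 82.5, 116 and 114.5 normalized CPM and the siCtrl#2 libraries 112.0, 99.6 and 103.7. siTsg101#2 gave 162, 147 and 141, siVps28#1 139, 160.0 and 120.0, and siVps28#2 165, 164 and 144. These 9 libraries all lay above the 6 nontargeting ones, a pattern seen for 2.48% of all genes, while siTsg101#1, at 121, 107 and 116, overlapped with them. The 3 siRNAs were grouped in this way after their values were seen, so that the percentage only describes how common such a pattern was.

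The log2 fold change of CHMP1B was 0.52 (SE 0.15, edgeR adjusted p = 0.0175) with siTsg101#2, where 11.3% of all genes were higher at that adjusted p, and 0.60 (SE 0.15, edgeR adjusted p = 0.00880) with siVps28#2. With siVps28#1 it was 0.42 (SE 0.15, edgeR adjusted p = 0.0879), and passed against the average of both nontargeting siRNAs (edgeR adjusted p = 0.0484), and with siTsg101#1 0.14 (SE 0.15, edgeR adjusted p = 0.542). CHMP1B was also the 1 gene of the 10 that rose with the mean of the 4 on-target siRNAs, by a log2 fold change of 0.42 (SE 0.12, edgeR adjusted p = 0.0161), where 12.0% of all genes were higher at that adjusted p. Against siCtrl#2 this was 0.41 (edgeR adjusted p = 0.0258).

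The siCtrl#1 library of replicate 1 had the lowest CHMP1B level of all 18. Without it the log2 fold change for the mean of the 4 siRNAs was 0.28 (edgeR adjusted p = 0.176). The rise was then lost also for siTsg101#2 (0.38, edgeR adjusted p = 0.110) and siVps28#2 (0.45, edgeR adjusted p = 0.0723), and that of siTsg101#2 was lost without siTsg101#2 replicate 1 (0.46, edgeR adjusted p = 0.0751). For the mean of the 4 siRNAs, the log2 difference to siCtrl#1 was 0.82, 0.30 and 0.18 within replicates 1, 2 and 3. The difference of this mean to siCtrl#2 was 0.38, 0.52 and 0.32. CHMP1B (ENSG00000255112, chromosome 18, 11851412 to 11854443) has 1 exon, and the antisense gene CHMP1B-AS1 covers 553 bases of it, so that without a known strand setting its reads may include those of the antisense transcript.

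By the 1.5-fold rule none of the 10 genes was called for the mean of the 4 on-target siRNAs, in edgeR or in DESeq2, where 15.0% of all genes were. CHMP1A, CHMP1B and CHMP4B were the 3 genes with an unadjusted p under 0.05. CHMP1A missed the adjusted threshold with a log2 fold change of 0.35 (edgeR adjusted p = 0.0538) and passed it with the replicate number as a block (0.36, edgeR adjusted p = 0.0401).

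**Figure D2:**
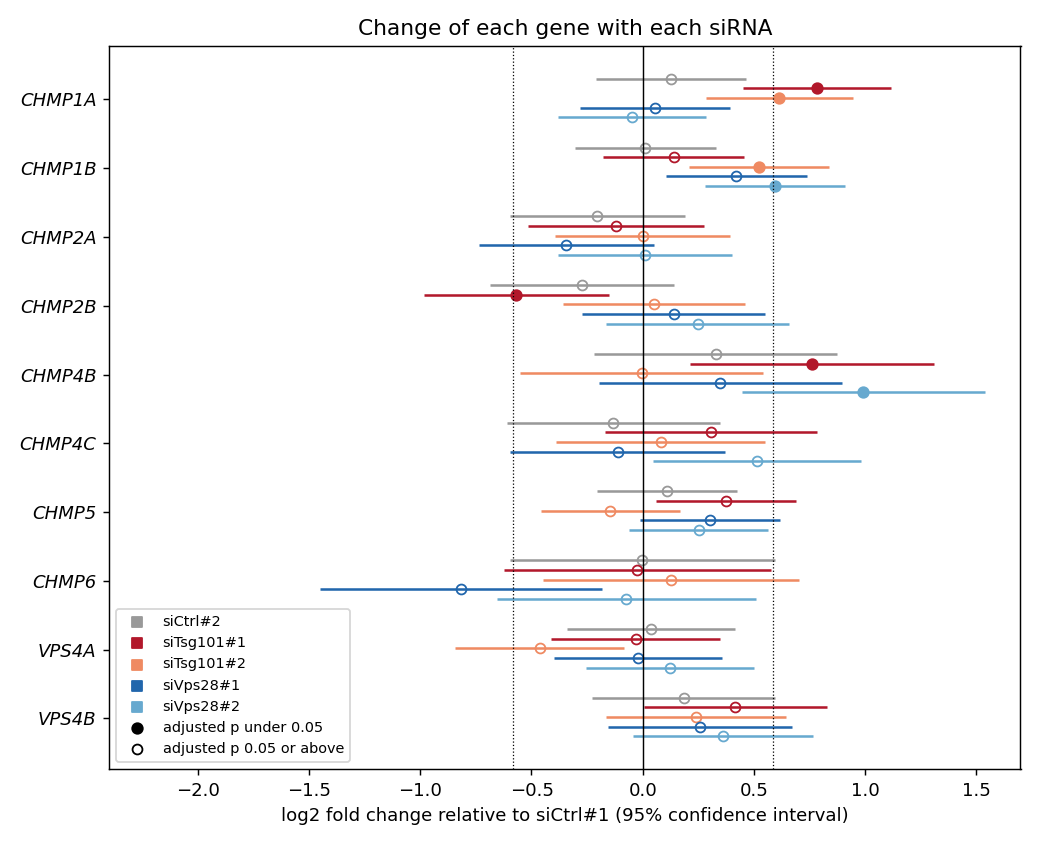
Log2 fold change of each gene relative to siCtrl#1 for siCtrl#2 and the 4 on-target siRNAs, from the edgeR fit; lines are 95% confidence intervals, filled circles have an adjusted p under 0.05 and dotted lines mark 1.5-fold. CHMP1A is filled for both siTsg101 siRNAs, CHMP1B for siTsg101#2 and siVps28#2, CHMP4B for siTsg101#1 and siVps28#2, and CHMP2B for siTsg101#1.

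CHMP5 (ENSG00000086065, chromosome 9, 33264877 to 33282068), which binds the VPS4 cofactor LIP5, did not pass against siCtrl#1 with any siRNA in the main edgeR fit. Its levels in siCtrl#1 were 117, 107 and 134.7 normalized CPM, and those in siTsg101#1 were 169, 148 and 149. These 2 groups did not overlap, as for 20.7% of all genes that were higher, but the log2 fold change of 0.37 (SE 0.15) had an edgeR adjusted p of 0.0733. The siTsg101#2 libraries gave 123, 95.3 and 106, all below those of siTsg101#1. Pseudogene transcripts, CHMP5P1 among them, share 14.9% of the CHMP5 transcript.

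VPS4A and VPS4B, the ATPases that disassemble ESCRT-III, passed no test against siCtrl#1 in the main edgeR fit. VPS4A (ENSG00000132612, chromosome 16, 69345253 to 69360842) had group means of 227 to 252 normalized CPM with every siRNA except siTsg101#2, which gave 179, 139.9 and 184. All 3 lay below the siCtrl#1 libraries, at 198, 256 and 239.9, as for 19.7% of all genes, and the log2 fold change was -0.46 (SE 0.18, edgeR adjusted p = 0.0753). With the replicate number as a block it passed the threshold, at -0.46 (edgeR adjusted p = 0.0475), and likewise against the average of both nontargeting siRNAs, at -0.48 (edgeR adjusted p = 0.0332). The siVps28#2 library of replicate 3 gave 345.8 normalized CPM of VPS4A, the highest of the 18, and the same library was the highest for CHMP4B, CHMP2B and VPS4B. Other transcripts share 46.6% of VPS4A in stretches of 50 bases, the largest such share of the 10 genes.

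VPS4B (ENSG00000119541, chromosome 18, 61056423 to 61089716) ranged from 30.0 to 57.0 normalized CPM. The 3 libraries of siTsg101#1 (51.0, 55.9 and 53.9) and the 3 of siVps28#2 (51.3, 46.8 and 57.0) exceeded those of siCtrl#1 (35.7, 43.7 and 41.4), as for 20.7% and 16.3% of all genes. However, 2 of the 3 siCtrl#2 libraries, at 52.2 and 54.6, were as high, while that of replicate 1, at 30.0, was the lowest of the 18. The log2 fold change with the mean of the 4 on-target siRNAs was 0.32 (95% interval -0.01 to 0.65, edgeR adjusted p = 0.156).

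Between the nontargeting siRNAs no gene of the 10 was called by edgeR or DESeq2, and none had an unadjusted p under 0.05; 2.06% of all genes were called. The largest difference was that of CHMP4B, with a log2 fold change of 0.33 for siCtrl#2 (95% interval -0.22 to 0.87). This interval holds the CHMP4B value of siTsg101#1 and leaves out that of siVps28#2.

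Tsg101 depletion and Vps28 depletion were then compared directly, each as the average of its 2 siRNAs. CHMP1A was higher upon Tsg101 depletion by 0.70 on the log2 scale (SE 0.11, edgeR adjusted p = 0.000152), the 1 called gene of the 10, where 6.20% of all genes were called. The 6 siTsg101 libraries all lay above the 6 siVps28 libraries, as for 3.28% of all genes. Within replicates 1, 2 and 3 the difference was 0.52, 0.86 and 0.68. For its paralog CHMP1B the difference was -0.18 on the log2 scale (edgeR adjusted p = 0.316), with a 95% interval from -0.40 to 0.04 that leaves out the value of CHMP1A. CHMP2B was lower upon Tsg101 depletion, with a log2 difference of -0.45 (SE 0.14, edgeR adjusted p = 0.0372), where 11.8% of all genes passed at that adjusted p, with within-replicate values of -0.21, -0.61 and -0.49. Of the 4 on-target groups siTsg101#1 had the lowest mean of CHMP2B, 132 normalized CPM, and siTsg101#2, siVps28#1 and siVps28#2 had 202, 215 and 232. The adjusted p of CHMP2B rose above 0.05 when any of 8 of these 12 libraries was left out, up to 0.124 without siVps28#1 replicate 2. CHMP6, at 0.50 (edgeR adjusted p = 0.124), and VPS4A, at -0.30 (edgeR adjusted p = 0.143), did not pass, and the other 5 were further from the threshold.

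**Figure D3:**
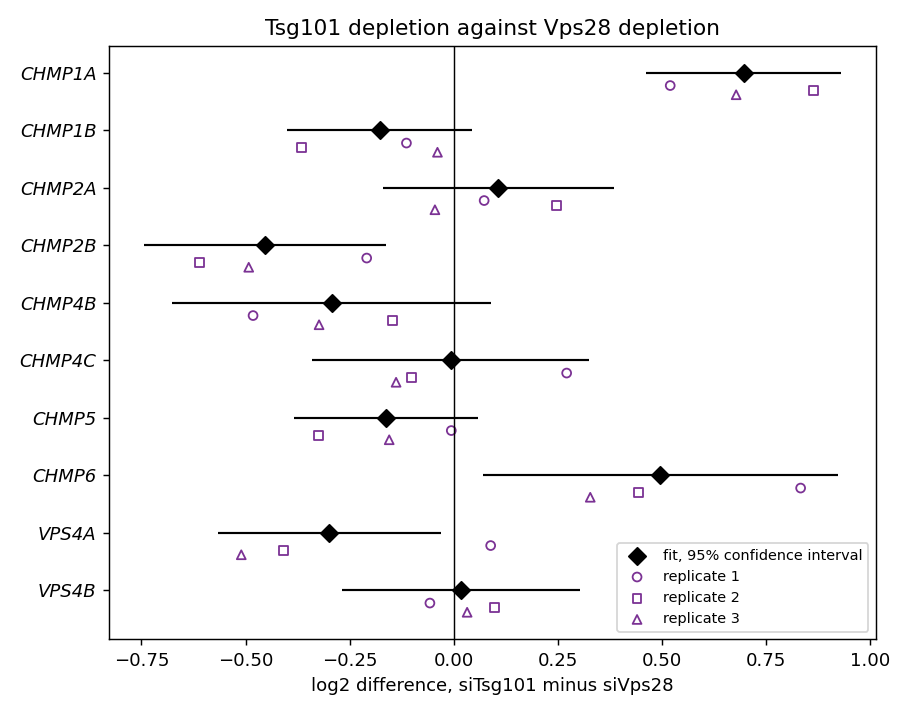
Log2 difference of each gene between the siTsg101 and the siVps28 groups; diamonds and lines are the edgeR estimate with its 95% confidence interval, and open symbols the difference of mean log2 normalized CPM within each replicate number. CHMP1A and CHMP6 lie to the right of 0 in all 3 replicates. CHMP1B, CHMP2B, CHMP4B and CHMP5 lie to the left, with CHMP5 at only -0.006 in replicate 1. The replicates of CHMP2A, CHMP4C, VPS4A and VPS4B fall on both sides.

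The 2 siRNAs against one target did not always give the same levels. Between siTsg101#1 and siTsg101#2 no gene of the 10 was called by edgeR, where 6.94% of all genes were. An unadjusted p under 0.05 was found for 5 genes, and 2, CHMP2B and CHMP4B, were called in DESeq2. CHMP5 was higher with siTsg101#1 by 0.52 on the log2 scale (SE 0.15, edgeR adjusted p = 0.0348), just short of 1.5-fold, where 7.89% of all genes passed at that adjusted p. It lost the threshold without any 1 library of the 2 groups other than siTsg101#2 replicate 1, with an edgeR adjusted p of up to 0.176. CHMP4B was higher with siTsg101#1 by 0.77 (SE 0.26, edgeR adjusted p = 0.0763), and by 0.83 with the replicate number as a block (edgeR adjusted p = 0.0211), which met the rule for a call. For CHMP1A the difference was 0.17 (95% interval -0.15 to 0.49). Between siVps28#1 and siVps28#2 none was called in edgeR or DESeq2, where 0.488% of all genes were, and CHMP4B, CHMP4C and CHMP6 had an unadjusted p under 0.05, all 3 lower with siVps28#1.

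The neighbouring parts of the pathway are given for the average of the 4 on-target siRNAs relative to siCtrl#1. Among 5 further ESCRT-III and VPS4 regulators, CHMP3, CHMP4A, CHMP7, IST1 and VTA1, none was called and none had an adjusted p under 0.05 in edgeR or DESeq2, and CHMP3 alone had an unadjusted p under 0.05. Their median log2 fold change was 0.15, all 5 estimates were positive, and CHMP3 was at 0.31 (edgeR adjusted p = 0.116). Nearly all of the CHMP4A transcript, 96.8%, is shared with read-through transcripts, and its value is uncertain.

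Among 14 partners of ESCRT-III, proteins with MIT or Bro1 domains and related ones, 2 were called higher and none lower, where 8.40% of all genes were called higher. PDCD6, a calcium-binding protein that recruits ALIX to damaged membranes, rose by 1.04 on the log2 scale (SE 0.16, edgeR adjusted p = 3.87e-05). Its mean was 43.6 normalized CPM with siCtrl#1, 114 with siCtrl#2 and 83.6 to 99.97 in the on-target groups. The other nontargeting siRNA thus gave more PDCD6 than any on-target siRNA, and against siCtrl#2 the log2 fold change was -0.34 (edgeR adjusted p = 0.0959). BROX, a Bro1-domain protein that binds CHMP4 proteins, rose by 0.95 (SE 0.18, edgeR adjusted p = 0.000344), and against siCtrl#2 the value was 0.34 (edgeR adjusted p = 0.158). MITD1, an abscission factor that binds ESCRT-III, rose by 0.43 (edgeR adjusted p = 0.0279), under 1.5-fold, and against siCtrl#2 the value was 0.37 (edgeR adjusted p = 0.0727). By adjusted p alone 3 of the 14 were higher and 1 lower. The median of the 14 was 0.06 against -0.01 for all genes. Read-through and overlapping transcripts share 98.3% of PDCD6.

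Of 15 genes of ESCRT-0, ESCRT-I and ESCRT-II, TSG101 and VPS28 were called lower and VPS37A, an ESCRT-I subunit, higher by 0.88 on the log2 scale (SE 0.20, edgeR adjusted p = 0.00213). VPS37A averaged 22.6 and 26.2 normalized CPM with the siTsg101 siRNAs, 10.2 and 13.5 with the siVps28 siRNAs and 9.01 with siCtrl#1, and against siCtrl#1 it was called with both siTsg101 siRNAs and with neither siVps28 siRNA. By adjusted p alone 3 of the 15 were higher and 3 lower, and 12.0% and 11.6% of all genes. The 3 lower ones include TSG101 and VPS28, whose fall was set by the siRNAs. Lower counts of this list therefore cannot be read against the share of all genes. The antisense gene MTMR7 overlaps 1231 bases of VPS37A. Of 9 genes of the abscission machinery, which ESCRT-III joins at the midbody, 4 were called lower and none higher, where 6.57% of all genes were called lower. ANLN, the scaffold anillin, fell by 1.19 on the log2 scale (SE 0.12, edgeR adjusted p = 2.53e-07), RACGAP1, a subunit of centralspindlin, by 0.93 (SE 0.13, edgeR adjusted p = 1.69e-05) and BIRC5, the chromosomal passenger survivin, by 0.85 (SE 0.11, edgeR adjusted p = 1.23e-05). By adjusted p alone 6 of the 9 were lower, and 11.6% of all genes. The median of the 9 was -0.56. The 10 ESCRT-III and VPS4 genes had a median of 0.20 in the same comparison. Against siCtrl#2, a reference chosen for these lists after their values were seen, none of the 10 was called. Of the 15 genes of ESCRT-0, ESCRT-I and ESCRT-II, which include the siRNA targets, 2 were called higher and 2 lower, where 6.09% and 4.39% of all genes were. Of the 14 partners 1 was called higher, where 6.09% of all genes were: PTPN23, a Bro1-domain protein named here after its values were seen, at 0.63 (edgeR adjusted p = 0.000838), which had 78.9 normalized CPM with siCtrl#1, 50.2 with siCtrl#2 and 75.8 to 79.8 in the on-target groups. Of the 9 abscission genes 6 were called lower, where 4.39% of all genes were.

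The genes whose log2 normalized CPM most resembled that of CHMP1B over the 18 libraries were SQSTM1 (Pearson r = 0.90, Spearman rho = 0.88), CTSD (r = 0.86) and INSIG1 (r = 0.84). SQSTM1 encodes the autophagy receptor p62, CTSD the lysosomal protease cathepsin D and INSIG1 a regulator of sterol synthesis. The likeness of CHMP1B and SQSTM1 was also present within the 6 siTsg101 libraries (r = 0.96) and within the 12 others (r = 0.91). Those most like CHMP1A were UGT8 (r = 0.94), RPL8 (r = 0.92) and WDR45 (r = 0.90). For these r was lower within the 6 siTsg101 libraries, at 0.64, 0.04 and 0.43, and within the 12 others, at 0.68, 0.54 and 0.25. The 2 paralogs themselves were not alike, with r = -0.01 between CHMP1A and CHMP1B. All of these are descriptions over libraries that share siRNA groups, and the genes were picked as the highest of all that were tested. Other transcripts share 55.9% of SQSTM1, 62.2% of CTSD, 50.3% of WDR45 and 21.4% of RPL8.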

How the data were processed

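RNA of 18 RKO cultures was made into libraries with the Ion AmpliSeq Transcriptome panel. The authors used an Ion Proton for sequencing, mapped reads to an hg19 panel reference and counted them with HTSeq (version 0.6.0 in the submitters' processing notes, which also list DESeq2 1.18.1). The counts the authors deposited are whole reads per target, neither normalized nor filtered. Groups and replicate numbers were taken from the labels. Identifiers of 20228 of 20802 genes were matched to a symbol.

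Genes with over 100 counts in all were kept (10632) and 386 of a noncoding type left out, which gave 10246. A quasi-likelihood model of edgeR 4.0.16 (R 4.3.3) with TMM factors was used, the 6 groups in one model with 12 residual degrees of freedom, and tested with Benjamini-Hochberg adjustment; 95% intervals use the fit's standard error. The code was tested on simulated data. Spread between replicates is the error behind each test, and counts as low as 20 limit CHMP6.

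Genes named are the 10 genes, TSG101 and VPS28, up to 3 genes of smallest p per list, and the 3 genes most like each of the 2 members with the smallest p. The pattern of CHMP1B over 9 libraries was named after its values were seen. Members, gene lists and motifs were chosen with earlier results of these data known. Replicate numbers pair libraries as batches. Over 45 same-numbered pairs the mean correlation of deviations was 0.15, and 15 pairs were at or below 0.1. Sequence overlap used GENCODE transcripts on GRCh37; amplicon positions were not used here. Alternatives were DESeq2 1.42.0, RLE factors, other count filters, noncoding genes kept, siCtrl#2 or both nontargeting siRNAs as reference, a replicate block, fits of the compared groups alone, and leaving out each library.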

Additional observations from a re-analysis of the deposited data

Results flagged for a closer look

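Differences between siRNA groups that passed a test of the difference itself were found for 3 genes. CHMP1A was higher with both siTsg101 than with both siVps28 siRNAs, by 0.70 on the log2 scale. For CHMP2B the average of the 2 siTsg101 siRNAs was lower, with a log2 difference of -0.45, but only siTsg101#1 was low. Against siCtrl#1 the log2 fold change of CHMP2B was -0.57 with siTsg101#1 and 0.05 with siTsg101#2. CHMP5 was higher with siTsg101#1 than with siTsg101#2, by 0.52. Groups of 3 libraries were too small for the check of single outlying samples.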

How the results depend on the processing

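The rise of CHMP1A with each siTsg101 siRNA kept an adjusted p under 0.05 in edgeR or DESeq2 under all 27 alternatives, and its difference between siTsg101 and siVps28 was called under all 25, at 0.67 to 0.74. Of 734 alternative values for single genes, 669 kept direction and side of the threshold, 34 fell short of it, 13 newly passed it and 18 changed sign. The causes were not tested.

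With siCtrl#2 as reference the genes called were 1 for siTsg101#1, 0 for siTsg101#2 and 1 for siVps28#2; with both nontargeting siRNAs, 0 for siTsg101#2. Without the low-count filter they were 1 for siVps28#1 (CHMP6), 2 for siTsg101#1 against siTsg101#2 and 1 for siVps28#1 against siVps28#2. By adjusted p alone they were 2 for siTsg101#2, 1 for the mean of the 4 siRNAs, 2 for siTsg101 against siVps28 and 1 for siTsg101#1 against siTsg101#2, and also 3 for siTsg101#1 where the 1.5-fold rule gave 2. With the 1.5-fold rule siTsg101#1 against siTsg101#2 gave 2 in DESeq2 and 1 in a fit of the 2 groups. Leaving out 1 library gave 1 to 2 genes for siTsg101#1, 0 to 2 for siTsg101#2, 0 to 1 for siVps28#1, 1 to 2 for siVps28#2, 0 to 1 for the mean and 0 to 2 for siTsg101#1 against siTsg101#2. Without siTsg101#2 replicate 2 no gene was called for siTsg101#2, and without siCtrl#1 replicate 1 only CHMP4B was called for siVps28#2.

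With the replicate number as a block, siTsg101#1 against siTsg101#2 gave 1 called gene (CHMP4B), and CHMP1A for the mean (0.36) and VPS4A for siTsg101#2 (-0.46) passed the adjusted p; it changed no other call of the 10 genes.

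For the mean of the 4 siRNAs, CHMP1A was 0.36 with at least 10 counts in every library, 0.29 with both nontargeting siRNAs as reference, 0.36 in the fit of its own groups, 0.35 in DESeq2 and 0.28 to 0.43 with a library left out, passing in each of these 4 and in 3 of the last. CHMP4B passed without the filter (0.53), without siTsg101#2 replicate 1 and without siVps28#2 replicate 1, and ranged from 0.43 to 0.60 with a library left out, CHMP1B from 0.28 to 0.50. Sign changes all concerned values near 0. CHMP2A for the mean was 0.091 against siCtrl#2; CHMP2B was 0.24 against siCtrl#2, 0.10 against both and -0.21 to 0.22 with a library left out. CHMP4C for siTsg101 against siVps28 was 0.0034 with at least 10 counts, 0.0023 with the block, 0.0020 in the fit of its own groups and -0.10 to 0.075 with a library left out, and VPS4B -0.063 to 0.068. In that comparison CHMP6 passed without the filter (0.50), VPS4A (which passed without siVps28#2 replicate 1) ranged from -0.39 to -0.15 and CHMP2B from -0.52 to -0.36 with a library left out. CHMP5 for siTsg101#1 against siTsg101#2 was 0.52 without the filter, short of the threshold, and 0.43 to 0.62 with a library left out.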
